A study of Mus musculus with 4 samples.

Results

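The genes described here are the mouse cytochrome P450 genes of families 2, 3 and 4. They were chosen by symbol, as protein-coding genes of the GENCODE annotation of NCBIM37/mm9 whose symbol starts with Cyp2, Cyp3 or Cyp4 followed by a letter, and 76 of 22350 protein-coding genes met this rule. Of the 76 genes, 67 lie in 7 clusters on 6 chromosomes and 9 are solitary, and 2 carry a symbol ending in -ps although the annotation lists them as protein-coding. A cluster was a chain of members with neighbouring genes at most 500 kb apart.

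The study followed chromatin structure in mouse liver over the day, and here CTCF binding was measured by ChIP-seq, which sequences the DNA that an antibody pulls down together with its protein. Livers came from male C57BL/6 mice, genotype wild type (spelled "wilde type" in the labels), with an age of 8 weeks in the labels. The paper states that mice of 8 weeks were kept for 2 weeks in 12 h of light and 12 h of dark with food ad libitum. Its description of tissue collection gives pools of 2 livers per replicate. The groups are ZT0, when the light phase starts, and ZT12, when the dark phase starts, with 2 biological replicates each. Each time point has 1 list of CTCF sites for both replicates, with 10113 sites at ZT0 and 6799 at ZT12. The paper reports far more CTCF sites than these lists hold, with most of them found at both times. Why the lists are shorter is not given in the sources used here, nor whether they were filtered for motifs. Below, no site therefore means none in these lists, and shared means listed in both. The lists hold positions only, so the label liver could not be checked against marker genes, the depth behind a site is unknown, and no spread between replicates and no test between the times could be had. The 95% Wilson intervals below cover counting error only.

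Cytochrome P450 enzymes are heme proteins of the endoplasmic reticulum, and those of families 2 and 3 oxidise drugs, steroids and other foreign and endogenous compounds, while family 4 mainly hydroxylates fatty acids and eicosanoids. Many are abundant in hepatocytes, and tandem duplication has left them in arrays of closely related genes. CTCF binds a long DNA motif and, with cohesin, holds the ends of chromatin loops and the borders of domains, in a way that depends on the strand of the motif.

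CTCF sites lay at the edges of 6 of the 7 P450 clusters at ZT0 and of 3 at ZT12. Sites inside the clusters were confined to 3 of the 7 at both times. Inside the clusters, meaning with the midpoint of the site between the first base of the first member and the last base of the last, 15 ZT0 sites and 12 ZT12 sites were listed. The Cyp4f cluster held 6 and 7 of them at ZT0 and ZT12, the Cyp2a/b/f/g/s/t cluster 8 and 4, and the Cyp4a/b/x cluster 1 and 1. The Cyp2c, Cyp2d, Cyp2j and Cyp3a clusters, with 39 members together, held no site at either time. At the edges, meaning within 50 kb outside either end, there were 10 ZT0 sites at 6 clusters and 5 ZT12 sites at 3 clusters. Both sides of a cluster were marked at either time only for Cyp2d and Cyp2a/b/f/g/s/t. The share of like flanks elsewhere in the genome with a site was not computed. For scale, 58.2% of all protein-coding genes had a ZT0 site in the body or within 50 kb, and 48.1% a ZT12 site.

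Per length of DNA, the interior of the clusters was sparser in sites than their surroundings. The 5.44 Mb inside the 7 clusters held 2.76 ZT0 sites and 2.21 ZT12 sites per Mb. In the first 50 kb outside there were 14.3 and 7.14 per Mb, from 50 to 200 kb 8.1 and 6.67, and from 200 to 500 kb 10.0 and 6.67. The chromosomes with sites held 3.83 ZT0 sites and 2.58 ZT12 sites per Mb as a whole. The surroundings lay above these values at both times. The values of the first 50 kb rest on only 10 and 5 sites, and that of ZT12 is near the 6.67 found farther out. The interior lay below them, with 2.21 against 2.58 at ZT12, but it rests on only 15 and 12 sites. No interval was computed for these densities, so the difference of the interior from the genome was not tested. The Cyp4f cluster, with 12.5 and 14.6 sites per Mb, was denser than the genome. Cyp2a/b/f/g/s/t held 5.9 and 2.95, of which the ZT12 value is near that of the genome. Of the other 5 clusters, Cyp4a/b/x held 1.85 at both times and the rest none. At the density of the genome, clusters of such lengths would hold few sites, and whether any single cluster differs from it was not tested.

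**Figure D1:**
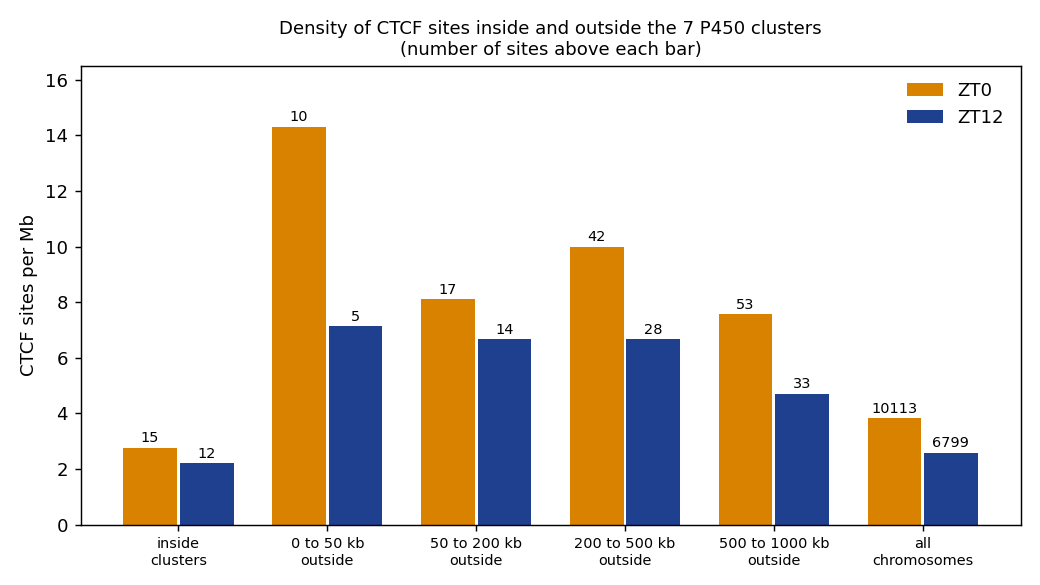
CTCF sites per Mb (y axis) inside the 7 P450 clusters and in distance bins outside their ends (x axis, kb), at ZT0 and ZT12, beside the value of the whole genome. The interior holds 2.76 and 2.21 sites per Mb and the first 50 kb outside holds 14.3 and 7.14.

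Within 50 kb of a member or in its body, 37 ZT0 sites and 27 ZT12 sites were listed. At ZT0, 14 lay inside clusters, 10 at cluster edges and 13 near solitary members, and 1 further site inside the Cyp2a/b/f/g/s/t cluster was more than 50 kb from every member. At ZT12, 12 were inside, 5 at edges and 10 near solitary members. A site overlapping a site of the other time by at least 1 bp was counted as shared, which held for 20 of the 37 ZT0 sites (54.1%, interval 38.4 to 69.0%) and 20 of the 27 ZT12 sites (74.1%, interval 55.3 to 86.8%). Over the whole lists the shares were 56.2% and 83.6%, both inside the intervals of the P450 sites. Inside the clusters, 7 of 15 ZT0 sites (46.7%, interval 24.8 to 69.9%) and 7 of 12 ZT12 sites (58.3%, interval 32.0 to 80.7%) were shared, and the last interval lies below the share of the whole ZT12 list. All 5 ZT12 sites at cluster edges were shared, against 5 of 10 at ZT0. Near the solitary members, 8 of 13 and 8 of 10 were shared. Of the 6799 widest ZT0 sites, as many as the ZT12 list holds, 10 lay inside clusters, so the order of the times is not the same there. This cut changes both the number and the widths of the ZT0 sites.

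The P450 sites near members had a median width of 323 bp at ZT0 (172 to 670 bp) and 255 bp at ZT12 (204 to 404 bp), against 313 and 285 bp in the whole lists. Of the 20 shared ZT0 sites, 15 were narrower and 5 wider at ZT12, and the median of the ZT12 width minus the ZT0 width was -69.5 bp. In the whole list 4044 of 5680 shared ZT0 sites (71.2%) were narrower at ZT12, with a median of -47.0 bp. By position of the midpoint, 17 ZT0 sites were intergenic, 14 in introns, 4 in UTRs and 2 in exons without coding sequence. At ZT12, 13 were intergenic, 10 in introns, 3 in UTRs and 1 in a coding exon.

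Counted by gene, 31 of the 76 members had a ZT0 site within 50 kb (40.8%, interval 30.4 to 52.0%), against 58.2% of all protein-coding genes. At ZT12 it was 30 members (39.5%, interval 29.2 to 50.7%), against 48.1% of all genes, so the value of all genes lay above the interval at ZT0 and inside it at ZT12. With the 6799 widest ZT0 sites, 26 members had a ZT0 site, fewer than at ZT12. Members of a cluster have overlapping windows and share sites, so these genes are not independent. At both times 26 members had a site (34.2%, interval 24.5 to 45.4%), against 45.4% of all genes. A site at ZT0 and none at ZT12 was found for 5 members (6.58%, interval 2.84 to 14.5%), against 12.8%, and the reverse for 4 (5.26%, interval 2.07 to 12.8%), against 2.66%, while 41 had none at either time (53.9%, interval 42.8 to 64.7%), against 39.1% of all genes. A site overlapped the gene body of 8 members at ZT0 (10.5%, interval 5.43 to 19.4%), against 18.2% of all genes, and of 6 at ZT12 (7.89%, interval 3.67 to 16.2%), against 12.6%. The members differed by cluster, since all 7 Cyp4f genes had a site within 50 kb at both times and none of the 8 Cyp3a genes had one at either.

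The distance from the gene start to the nearest site also differed by cluster. Its median was 17.4 kb at ZT0 and 11.7 kb at ZT12 for Cyp4f genes, 38.4 and 40.1 kb for Cyp2a/b/f/g/s/t, 50.8 and 52.7 kb for Cyp2d, and 89.2 and 63.4 kb for Cyp4a/b/x. For Cyp2c it was 317 and 388 kb, for Cyp3a 330 and 425 kb, and for Cyp2j 278 and 1380 kb. The solitary genes, with 23.4 and 20.7 kb, were near sites. Over all 76 members the median was 85.6 kb at ZT0 and 108 kb at ZT12, against 47.8 and 76.3 kb for all protein-coding genes. The nearest site was more than 1 kb farther from the start at ZT12 in 38 members (interval 39.0 to 61.0%), against 39.4% of all genes, and more than 1 kb nearer in 9 (11.8%, interval 6.36 to 21.0%), against 10.8%.

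**Figure D2:**
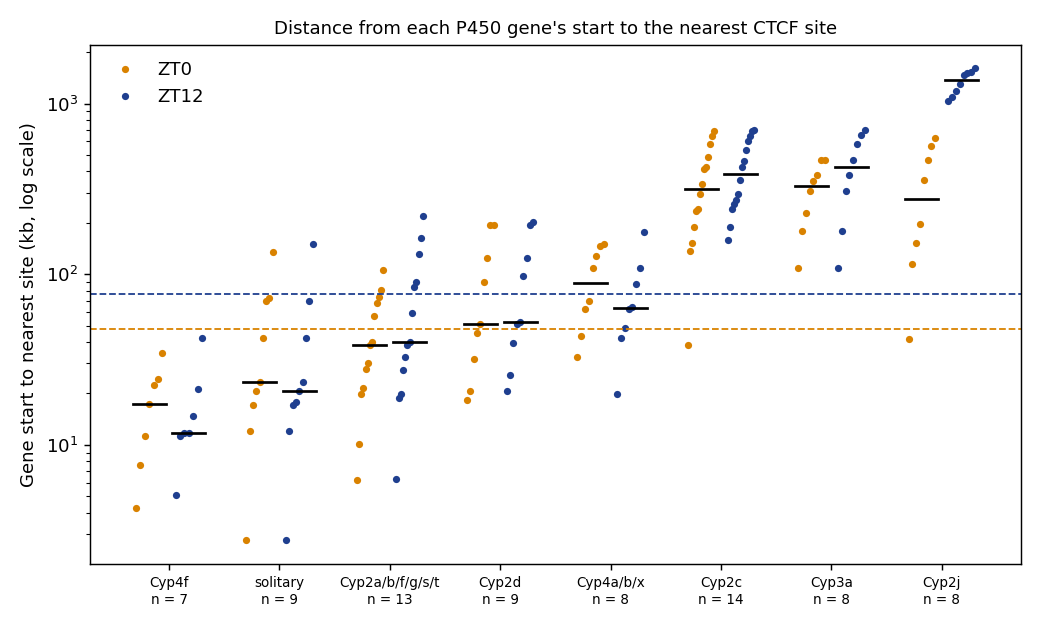
Distance from the start of each of the 76 P450 genes to the nearest CTCF site (kb, log axis) at ZT0 and ZT12, with genes grouped by cluster and 1 point for each gene and time. Cyp4f genes lie lowest, with medians of 17.4 and 11.7 kb, and Cyp2j genes at ZT12 highest, with a median of 1380 kb.

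The Cyp2a/b/f/g/s/t cluster spans chr7:26587494-27943687, from Cyp2s1, a mainly extrahepatic P450, to Cyp2t4, with 13 members and 8 other protein-coding genes between them. Shared sites flanked it on both sides. On the left a shared site lay 46.2 kb beyond Cyp2s1, at chr7:26541162-26541454 and 1.56 kb from the start of Hnrnpul1, which encodes an RNA-binding protein. On the right a shared site lay 1.29 kb beyond Cyp2t4 at chr7:27944804-27945159, in an intron of Egln2, an oxygen-sensing prolyl hydroxylase. Between them, 4 Cyp2b genes held intronic sites. Cyp2b10, which phenobarbital induces through the receptor CAR, held a shared intronic site, chr7:26702337-26702632 at ZT0 and chr7:26702449-26702675 at ZT12. Cyp2b13, a female-predominant gene of mouse liver, held an intronic site listed at ZT12 only (chr7:26873617-26874014). Cyp2b9, also female-predominant, held an intronic site at ZT0 only (chr7:26986105-26986416), and so did Cyp2b19, a keratinocyte P450 (chr7:27552096-27552486).

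The remaining sites inside this cluster were intergenic. A shared site at chr7:26640127-26640556 lay 38.4 kb beyond Cyp2s1, and another at chr7:27560963-27561214 lay 3.44 kb past Cyp2b19. Sites at ZT0 only were at chr7:26773380-26773628, 61.9 kb past Cyp2b10, at chr7:27563524-27563900, 6.06 kb past Cyp2b19, and at chr7:27745919-27746157, 21.6 kb from Cyp2a22. The longest stretch without a site was 566 kb at ZT0, from the Cyp2b9 intron to the Cyp2b19 intron, and 687 kb at ZT12, from the Cyp2b13 intron to the site past Cyp2b19. Both stretches hold Cyp2a4 and Cyp2b23. Of all gaps, 8.78% at ZT0 and 11.9% at ZT12 were at least as long, and these span 59.1% and 63.8% of the genome. Cyp2a5, which hydroxylates coumarin, had no site within 50 kb at either time, and its start was 56.6 kb from a ZT0 site and 59.2 kb from a ZT12 site.

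The 4 Cyp2b introns carried the same 19 bp sequence. To find motifs, a 19 bp weight matrix was learned from the listed sites, starting from the 12-mer CCACCAGGGGGC searched on both strands, which is present in 0.0163% and 0.0197% of the regions 5 kb away from sites on odd chromosomes and on the others. A match was counted as a CTCF motif when its score was passed by 1.01% or 1.0% of those regions. The best match in the Cyp2b10 site scored 16.2, below the threshold of 17.0 for odd chromosomes. It occurs 5 times in the mm9 genome, and all 5 copies lie in this cluster and in a listed site, 4 at ZT0 and 2 at ZT12, with Cyp2b10 as the only copy in a site at both times. The sequences below show how alike the copies are, with the 19 bp match in capitals and 15 bp on either side, all on the plus strand of mm9, at chr7:26702475-26702493, chr7:26773501-26773519, chr7:26873788-26873806, chr7:26986278-26986296 and chr7:27552291-27552309 in this order.
Cyp2b10 intron, ZT0 and ZT12: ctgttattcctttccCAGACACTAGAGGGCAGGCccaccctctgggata
intergenic past Cyp2b10, ZT0: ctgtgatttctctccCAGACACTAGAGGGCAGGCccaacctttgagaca
Cyp2b13 intron, ZT12: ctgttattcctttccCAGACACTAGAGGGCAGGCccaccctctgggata
Cyp2b9 intron, ZT0: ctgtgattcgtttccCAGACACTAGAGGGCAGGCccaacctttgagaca
Cyp2b19 intron, ZT0: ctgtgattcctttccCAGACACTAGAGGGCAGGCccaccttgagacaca

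The Cyp2b10 and Cyp2b13 copies were identical over these 49 bp although Cyp2b13 was listed only at ZT12, and the other 3 differed from Cyp2b10 at 7, 6 and 7 positions in the order shown for the intergenic, Cyp2b9 and Cyp2b19 copies. Over 1019 bp centred on the match, identity to the Cyp2b10 copy was 74.9% for the intergenic copy, 75.9% for Cyp2b13, 69.1% for Cyp2b9 and 68.5% for Cyp2b19. The most alike pair over this length was the intergenic copy, listed at ZT0 only, and the Cyp2b13 copy, listed at ZT12 only, with 93.0% identity. The match lay 10.1 kb from the gene start in Cyp2b19 and between 19.8 and 27.9 kb from it in the other 3 genes. A further 4 copies with 1 to 3 mismatches lay in the cluster and in no listed site of either time. They are shown for comparison, with capitals as before, at chr7:26800034-26800052 on the minus strand, chr7:26919731-26919749 on the minus strand, chr7:27457699-27457717 on the minus strand and chr7:27524138-27524156 on the plus strand.
upstream of Cyp2b13, 3 mismatches: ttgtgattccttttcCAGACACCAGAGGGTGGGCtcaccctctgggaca
past Cyp2b13, 3 mismatches: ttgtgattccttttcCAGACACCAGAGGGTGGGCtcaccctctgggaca
Cyp2b23 intron, 3 mismatches: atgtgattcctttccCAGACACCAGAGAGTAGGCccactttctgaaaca
upstream of Cyp2b19, 1 mismatch: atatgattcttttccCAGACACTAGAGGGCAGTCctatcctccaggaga

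Reads from near-identical copies are hard to place, and the authors kept reads by a mapping quality filter of 30. As a measure of this, the share of 31 bp stretches that occur more than once in the genome was 51.1% in the Cyp2b10 site at ZT0 and 30.5% at ZT12, 47.8% in the Cyp2b13 site, 40.6% in the intergenic site, 32.6% in the Cyp2b9 site and 17.2% in the Cyp2b19 site. Its part in which copies were listed at which time was not tested.

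Copies were also seen for Cyp2a. The ZT0-only site near Cyp2a22 held a motif at chr7:27746100-27746118 on the minus strand, whose 49 bp occur identically at chr7:27633764-27633782 on the minus strand, beyond the 3′ end of Cyp2a5, in no listed site. Identity over 1019 bp was 83.4%, and 66.5% of the 31 bp stretches of the listed site were repeated. A copy with 1 mismatch, differing at 2 of the 49 positions and with 83.0% identity, lay past the NLR family gene Nlrp9c at chr7:27105577-27105595 on the minus strand, also in no listed site. The identical pair is shown because only 1 of its identical copies was listed, with the match in capitals.
near Cyp2a22, ZT0: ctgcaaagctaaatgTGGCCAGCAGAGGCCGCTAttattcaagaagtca
past Cyp2a5, in no site: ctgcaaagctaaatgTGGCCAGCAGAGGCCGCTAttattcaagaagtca

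The Cyp4f cluster, at chr17:32605404-33084347, runs from Cyp4f39, which hydroxylates very long fatty acids for the skin barrier, to Cyp4f13, with 7 members in 479 kb. It was the only cluster in which every member had a site within 50 kb at both times. Cyp4f39 held 2 shared intronic sites, chr17:32616512-32616838 and chr17:32620262-32620614, and neither contained a motif above the threshold. Cyp4f16 held a shared site in its UTR, chr17:32688121-32688406. The other sites in gene bodies were listed at 1 time, namely chr17:32665798-32666040 across the end of Cyp4f17 and chr17:32839844-32840015 in the UTR of Cyp4f15 at ZT0, and chr17:33042196-33042407 in the UTR of Cyp4f14, a leukotriene hydroxylase, at ZT12. A shared site at chr17:32771928-32772411 lay in Gm9705, a predicted gene between Cyp4f16 and Cyp4f40. Intergenic sites at ZT12 only lay 1.45 kb past Cyp4f39 (chr17:32631596-32631837) and 3.85 kb past Cyp4f40 (chr17:32817331-32817642).

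Some sites of the Cyp4f cluster lay at the 3′ ends of genes. A site midpoint was within 1 kb of the annotated 3′ end in 3 of the 76 members at ZT0 (3.95%), namely Cyp4f17, Cyp4f16 and Cyp4f15, against 2.73% of all protein-coding genes. At ZT12 it was 2 members (2.63%), Cyp4f16 and Cyp4f14, against 1.91%, so both values of all genes lay inside the intervals of the members. All 4 of these members are Cyp4f genes. Sites at ZT0 also lay there in Gm9705, where the site was shared, and in the pseudogene Cyp4f41-ps, just beyond Cyp4f13. The best motif match in each lay on the strand of the gene, from 0.941 kb before the 3′ end in Gm9705 to just past the end in Cyp4f17, and scored 15.8 in Cyp4f17 and Cyp4f16, below the threshold of 17.0. It was above it in the other 4, with 23.0 in Gm9705 and Cyp4f14 and 20.9 in Cyp4f15. The 19 bp matches are shown because each lies within 1 kb of the 3′ end of a gene in or just beyond this cluster. Capitals mark the 11 positions that hold the same base in all 6, read on the strand of the gene. The matches lie at chr17:32665904-32665922, chr17:32688243-32688261, chr17:32772179-32772197 and chr17:32839978-32839996 on the plus strand and at chr17:33042338-33042356 and chr17:33088579-33088597 on the minus strand.
Cyp4f17, ZT0: gagCCAtcAGaGGGCGCtg
Cyp4f16, ZT0 and ZT12: gagCCAtcAGaGGGCGCtg
Gm9705, ZT0 and ZT12: acgCCAgcAGgGGGCGCta
Cyp4f15, ZT0: ataCCAgtAGgGGGCGCtg
Cyp4f14, ZT12: gagCCAgcAGgGGGCGCtg
Cyp4f41-ps, ZT0: gtaCCAgcAGgGGGCGCgg

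All 11 capital positions hold the base of the learned motif's consensus for odd chromosomes, NNGCCACCAGGGGGCGCNN. Each match was chosen by its score for that motif, so likeness to the consensus follows in part from the search. In the Cyp4f members without a site at the 3′ end, Cyp4f39, Cyp4f40 and Cyp4f13, the best match within 1 kb of that end scored 5.66, 5.87 and 5.97, below the threshold. Outside this cluster, Cyp2f2, a naphthalene-oxidising P450, and Cyp3a13 had matches of 20.3 and 20.6 there and no site. The matches in Cyp4f17 and Cyp4f16 are identical but differ in listing, since the Cyp4f17 site was found at ZT0 only. Repeated 31 bp stretches made up 16.4% of the Cyp4f17 site and 17.6% of the Cyp4f16 site at ZT0.

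Beyond the Cyp4f cluster, the flanks differed between the times. On the right a ZT0-only site, chr17:33088386-33088813, lay 4.25 kb from Cyp4f13 in the Cyp4f41-ps exon. At ZT12 the nearest was 918 kb away. On the left the nearest ZT0 site was 325 kb away, in a coding exon of the Notch receptor gene Notch3.

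The Cyp4a/b/x cluster, at chr4:114778928-115320322, runs from Cyp4x1, known from brain, to Cyp4b1, known from lung, and holds 8 members in 541 kb. A shared site lay 20.6 kb to its left, at chr4:114758190-114758534, and a ZT0-only site at chr4:114774174-114774553 lay 4.57 kb from Cyp4x1. On the right no site lay within 50 kb, and the nearest was shared and 62.3 kb beyond Cyp4b1, at chr4:115382452-115382848. Inside, 1 site was listed at each time and they did not overlap. The ZT0 site, chr4:115040845-115041128, lay 35.6 kb past Cyp4a12a, and the ZT12 site, chr4:115148702-115148943, lay 9.98 kb from Cyp4a14. Cyp4a14 and Cyp4a10, fatty acid hydroxylases induced through PPARα, thus had a site within 50 kb at ZT12 and none at ZT0. The nearest site to the start of Cyp4a14 was 128 kb away at ZT0 and 19.9 kb at ZT12, and for Cyp4a10 the distances were 150 and 42.0 kb.

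The ZT0 and ZT12 sites of this cluster lay in copies of the same sequence. Their best matches, at chr4:115040856-115040874 and chr4:115148823-115148841 on the plus strand, were identical with 15 bp on either side, scored 24.9 and occur nowhere else in the genome. Both contain the 12-mer CCACCAGGGGGC. Identity over 1019 bp was 96.5%, and repeated 31 bp stretches made up 72.4% of the ZT0 site and 62.3% of the ZT12 site. The change in position between the times is therefore between near-identical copies, and the part of read placement in it was not tested. The sequences are shown because they carry the only sites inside this cluster, with the match in capitals.
past Cyp4a12a, ZT0: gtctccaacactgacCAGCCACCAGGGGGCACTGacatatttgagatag
near Cyp4a14, ZT12: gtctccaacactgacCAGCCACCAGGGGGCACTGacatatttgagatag

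The Cyp2d cluster, at chr15:82200958-82624675, holds 9 members in 424 kb, from Cyp2d22, often compared with the human drug-metabolising enzyme CYP2D6, to Cyp2d26. No site lay inside, and shared sites lay at both edges. The left shared site, chr15:82184675-82185097, was 16.1 kb from Cyp2d22 and 0.165 kb from the start of Ndufa6, a subunit gene of respiratory complex I. The right shared site, chr15:82645256-82645584, was 20.7 kb beyond Cyp2d26, in an intron of the transcriptional coregulator gene Tcf20. A ZT0-only site at chr15:82192304-82192582 lay 8.52 kb from Cyp2d22, with 51.0% repeated 31 bp stretches. The right site held a motif at chr15:82645373-82645391 on the plus strand, given here with the match in capitals as an example of an edge site found at both times.
Cyp2d right edge: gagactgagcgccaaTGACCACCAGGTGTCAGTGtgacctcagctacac

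The Cyp2c cluster, at chr19:39081509-40261823, is a stretch of 1180 kb with 14 members, from Cyp2c55, known from colon, to Cyp2c70, which makes muricholic acids from bile acids. It held no site, and neither did Cyp2c29, a liver epoxygenase of arachidonic acid, whose start was 422 kb from the nearest site at both times. The only edge site was at ZT0, chr19:40300004-40300245, 38.3 kb beyond Cyp2c70 in an intron of the PDZ and LIM domain gene Pdlim1. On the left the nearest site was shared and 188 kb away, at chr19:38893627-38894013 by Noc3l. The stretch without a site was 1410 kb at ZT0, and 3.34% of the gaps between neighbouring ZT0 sites were at least as long, which together span 40.9% of the genome. The median gap in the genome was 72 kb at ZT0 and 107 kb at ZT12.

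The Cyp2j cluster, at chr4:95694225-96330845, holds 8 members in 637 kb, from Cyp2j13 to Cyp2j5, an epoxygenase of arachidonic acid in kidney and liver. A ZT0-only site, chr4:96372403-96372614, lay 41.7 kb beyond Cyp2j5, and no ZT12 site lay within 1000 kb on that side, the nearest being 1660 kb away. On the left the nearest sites were 974 kb away at ZT0 and 977 kb at ZT12, the latter in the coding exon of Jun, a transcription factor gene. The gap around the cluster was 1650 kb at ZT0 and 3270 kb at ZT12, the longest at either time among the P450 loci. Of all gaps, 2.86% and 1.74% were at least as long, and these span 38.2% and 27.2% of the genome.

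The Cyp3a cluster, at chr5:146106148-146924861, holds 8 members in 819 kb, from Cyp3a57 to Cyp3a59, with Cyp3a11, a main drug-metabolising P450 of mouse liver, among them. No site lay inside or at an edge at either time, and the start of Cyp3a11 was 308 kb from the nearest site at both times. The nearest site was shared and lay 74.4 kb beyond Cyp3a59, at chr5:146999059-146999373. On the left the nearest site was 228 kb away at ZT0, in an intron of the actin-related gene Arpc1b, and 577 kb away at ZT12, in a UTR of Trrap, a component of histone acetyltransferase complexes. The gap was 1120 kb at ZT0 and 1470 kb at ZT12, and 4.3% and 5.44% of all gaps were at least as long, spanning 45.5% and 47.6% of the genome. Of the sequence of this cluster, 6.11% is unknown in mm9, where no site could be listed.

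The site beyond the Cyp3a cluster had a relative near Cyp3a13, the solitary gene of this family, known from intestine and liver. Cyp3a13 had no site within 50 kb, the nearest being 105 kb away at ZT0 and 122 kb at ZT12. On its right the nearest ZT12 site, chr5:138914903-138915188, was shared and 552 kb away, and a ZT0-only site lay nearer. Its match at chr5:138915003-138915021 and that of the Cyp3a site at chr5:146999195-146999213, both on the plus strand, differed at 3 of 49 positions, and identity over 1019 bp was 90.4%. This was the only pair of nearest flanking sites of different loci that differed at 10 or fewer positions. The sequences are shown for that reason, with the match in capitals.
right of Cyp3a13: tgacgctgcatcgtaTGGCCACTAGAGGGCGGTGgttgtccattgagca
right of the Cyp3a cluster: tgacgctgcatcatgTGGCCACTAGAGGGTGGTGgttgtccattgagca

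**Figure D3:**
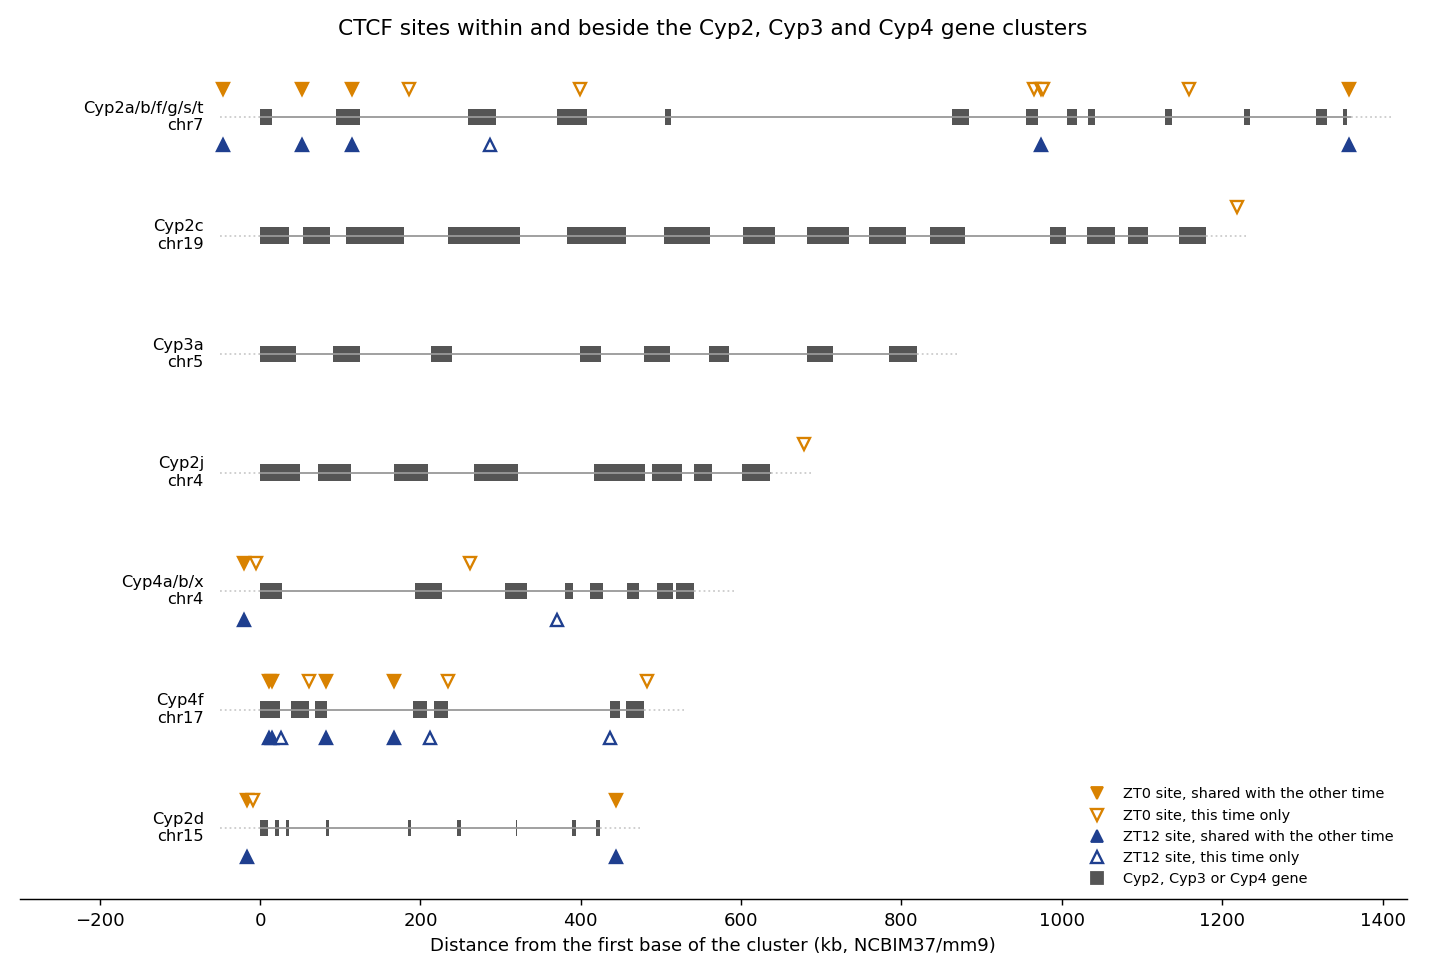
Map of the 7 P450 clusters with 50 kb on either side (x axis, distance from the first base of the cluster in kb), with members as boxes and CTCF sites as triangles, ZT0 above and ZT12 below the line, filled where shared and open where listed at 1 time. Sites inside clusters are drawn for Cyp4f (6 and 7 at ZT0 and ZT12), Cyp2a/b/f/g/s/t (8 and 4) and Cyp4a/b/x (1 and 1), and none for the other 4.

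Of the 9 solitary genes, 7 had a site within 50 kb at ZT0 (77.8%, interval 45.3 to 93.7%), against 58.2% of all genes, and 8 at ZT12 (88.9%, interval 56.5 to 98.0%), against 48.1%. Cyp2e1, the ethanol-oxidising P450, had a shared site 31 kb past its end, at chr7:147991655-147992014, and no other site within 50 kb. Cyp2w1, known from fetal tissue and tumours, held the site nearest to a start among the 76 members, a shared intronic site 2.76 kb from its start at chr5:139831161-139831504. Within 50 kb it had 5 sites at ZT0 and 2 at ZT12, the most of any member at ZT0. The motif of the intronic site, at chr5:139831368-139831386 on the minus strand, scored 24.4 and is given with the match in capitals because this was the only site in the body of a solitary member.
Cyp2w1 intron: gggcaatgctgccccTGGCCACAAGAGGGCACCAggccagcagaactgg

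Cyp2u1, a fatty acid hydroxylase, had 3 sites within 50 kb at ZT0 and 1 at ZT12. The shared site, chr3:131023108-131023396, lay 17.1 kb from its start in a UTR of Sgms2, a sphingomyelin synthase gene. The ZT0-only sites lay 4.4 kb past its end (chr3:130988874-130989140) and 44.3 kb away in an exon of Hadh, a gene of fatty acid oxidation (chr3:130948807-130949476). Cyp2r1, which hydroxylates vitamin D in liver, went the other way, with no ZT0 site within 50 kb and a ZT12-only site 17.7 kb from its start, at chr7:121724038-121724264. Its nearest ZT0 site was 72.8 kb away.

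Cyp4v3, a fatty acid hydroxylase, had a shared site 12.0 kb from its start at chr8:46430396-46430691, in an intron of Fam149a. Cyp4f18, known from neutrophils, had a shared site 23.4 kb from its start at chr8:74556779-74557058 and a ZT12-only site 16.4 kb past its end at chr8:74495898-74496112, in an intron of the zinc finger gene Zfp961. Of the stretches of the shared Cyp4f18 site, 70.8% were repeated. Cyp2ab1 had a shared site 5.91 kb past its end at chr16:20302363-20302739, 0.091 kb from the start of Parl, a mitochondrial protease gene. Cyp2c44, an epoxygenase outside the Cyp2c cluster, had a shared site 45.7 kb past its end at chr19:44033727-44033954, in an intron of Cpn1, a carboxypeptidase gene.

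Motifs above the threshold were sparse inside most P450 clusters. There were 29 matches above the threshold, 5.33 per Mb, against 31226 and 11.8 per Mb in the genome. By cluster there were 10 in Cyp4f, 8 in Cyp2a/b/f/g/s/t, 4 in Cyp4a/b/x, 2 each in Cyp2d, Cyp2j and Cyp3a, and 1 in Cyp2c. Of the 29 matches, 5 lay in a ZT0 site (17.2%, interval 7.6 to 34.5%) and 6 in a ZT12 site (20.7%, interval 9.85 to 38.4%), against 21.2% and 14.9% in the genome, which both intervals hold. Cyp4f, with 20.9 matches per Mb, was above the genome. The exact 12-mer occurred 3 times inside the clusters, 0.552 per Mb, against 0.305 in the genome. These occurrences include the near-identical pair of copies in the Cyp4a/b/x cluster, and no interval was computed for these densities. Of the sites inside clusters, 5 of 15 at ZT0 (33.3%, interval 15.2 to 58.3%) and 6 of 12 at ZT12 (interval 25.4 to 74.6%) contained a match above the threshold, against 63.1% and 65.1% in the whole lists. The ZT0 interval lies below the value of the whole list. Among the sites below the threshold are the 4 Cyp2b-type copies listed at ZT0, which scored 16.2. The identical Cyp4f17 and Cyp4f16 matches, which scored 15.8, are also among them. These scores are near the threshold of 17.0, and copies of the same sequence are not independent, which the interval does not take into account.

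At ZT0 the best matches in the nearest sites beyond the 2 cluster ends, above the threshold or not, were on the same strand in 4 clusters, pointed towards each other in 2 and away from each other in 1. With a match above the threshold on both sides, the motifs were on the minus strand on both sides of Cyp2c at ZT0 and of Cyp4a/b/x at ZT12, and pointed away from each other around Cyp3a at ZT12. Cyp2c and Cyp4f at ZT12 are left out, because the nearest ZT12 site on 1 side of each is not reported here, and for the same reason no ZT12 counts are given. In the remaining cases at least 1 side had no match above the threshold.

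Base composition and repeats differed among the P450 clusters in a way that goes only partly with the sites. GC content was 39.0% in Cyp2c and 39.1% in Cyp2j, both without sites, and 44.0% in Cyp4f, but also 44.2% in Cyp2d, without sites. The share of 31 bp stretches found more than once in the genome was 50.5% in Cyp3a, 45.9% in Cyp2c, 44.8% in Cyp4a/b/x, 39.2% in Cyp2a/b/f/g/s/t, 34.6% in Cyp2d, 27.1% in Cyp2j and 16.9% in Cyp4f, against 15.9% in evenly spaced windows of the genome. Reads from such stretches can fail a mapping quality filter, and the part of this in the low number of sites was not tested. Among sites inside clusters, the median share of repeated stretches was 24.9% in the 8 ZT0-only sites and 9.46% in the 7 shared ZT0 sites, while it was 0 in the 5 ZT12-only sites, which ranged from 0 to 62.3%, and 5.31% in the 7 shared ZT12 sites.

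Other genes of the pathway are given for comparison. Of 22 P450 genes of other families, 15 had a site within 50 kb at ZT0 (68.2%, interval 47.3 to 83.6%) and 13 at ZT12 (59.1%, interval 38.7 to 76.7%), and both intervals hold the values of all genes, 58.2% and 48.1%. Among these, Cyp1a2 and Cyp1a1, which oxidise aromatic compounds, had 4 and 3 sites at both times, and Cyp27a1, a sterol hydroxylase of bile acid synthesis, had 5 at ZT0 and none at ZT12. Cyp7a1, the rate-limiting enzyme of bile acid synthesis, had none at either time. Of 12 genes for electron donors, receptors and a receptor partner that serve or regulate P450 genes, 11 were matched by symbol, and 10 had a site at ZT0 (90.9%, interval 62.3 to 98.4%) and 6 at ZT12 (54.5%, interval 28.0 to 78.7%), where only the ZT12 interval holds the value of all genes. These genes are longer, with a median of 62853 bp against 15427 bp for all genes, so their windows are larger. The receptor genes Nr1i3 (CAR), Nr1i2 (PXR) and Ppara had 4, 3 and 3 sites at ZT0 and 3, 1 and 1 at ZT12, and the P450 reductase gene Por had 1 at ZT0 and none at ZT12.

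Other clustered liver families also varied, and are set against the same 58.2% and 48.1%. None of 9 Ugt2 genes, for glucuronidation, had a site within 50 kb at either time (interval 0 to 29.9%), and their cluster on chromosome 5 held none. Of 16 Ces genes, for carboxylesterases, 7 had a site at ZT0 (43.8%, interval 23.1 to 66.8%) and none at ZT12 (interval 0 to 19.4%), with 1 site at ZT0 inside each of their 2 clusters on chromosome 8. Of 23 Serpina genes, for serum protease inhibitors, 10 had a site at ZT0 (43.5%, interval 25.6 to 63.2%) and 8 at ZT12 (34.8%, interval 18.8 to 55.1%), and their cluster on chromosome 12 held 5 and 4 sites. Arrays without an internal site were thus not seen in P450 genes alone.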

How the data were processed

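CTCF ChIP-seq of mouse liver at ZT0 and ZT12 was used, with 2 biological replicates per time. The authors mapped reads to NCBIM37/mm9 with Bowtie2, filtered them at a mapping quality of 30 with samtools and took out duplicates with Picard. MACS2 called peaks at default settings; FastQC and deepTools are also named in the submitters' processing notes. They deposited 1 list of peak positions per time point for both replicates, labelled with FIMO, giving chromosome, start and end in bp and no score. How replicates were combined, and whether FIMO filtered the peaks, is not given in the sources used here, so a place without a site is one without a site in these lists.

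Starts were converted to count from 1. Sites were shared at an overlap of at least 1 bp, and in the whole list the width was compared with the site of largest overlap. Members were extended by 50 kb and chained at 500 kb. The weight matrix of 19 bp was refined over 3 rounds, with separate matrices from odd chromosomes and from the rest, each used to score the chromosomes it was not learned on. Copies of a match were searched with up to 3 mismatches within each cluster and 50 kb around it, and 500 bp on either side were aligned. No test between the times was run. The nearest ZT12 sites on 1 side of the Cyp4f and Cyp2c clusters are not reported here. The motif scan was tested on simulated sequences with planted motifs, and the overlap and chaining steps on small made-up examples.

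Members named singly are the first and last of each cluster, those with a site in the body and the solitary members. Also on the list were Cyp2e1, Cyp2b10, Cyp2a5, Cyp2c29, Cyp2d22, Cyp2j5, Cyp2r1, Cyp2u1, Cyp3a11, Cyp3a13, Cyp4a10, Cyp4a14, Cyp4f14 and Cyp4v3. Sites named are those inside clusters, the nearest beyond each cluster end and the nearest to solitary members. Gm9705, Cyp4f41-ps, Cyp4a12a, Cyp2a22, Cyp2a4, Cyp2b23, Cyp4f40, the other edge sites, Cyp2f2, Nlrp9c, the searches for copies, the comparison of flanking sites and that of 3′ ends were chosen after the values were seen. The other lists were P450 genes of other families, electron donors and receptors, and the Ugt2, Ces and Serpina genes. The members and lists were chosen with earlier results of these data known. Python 3.11.15, NumPy 2.4.6, pandas 2.3.3, SciPy 1.17.1, pysam 0.24.0, numba 0.67.0, edlib 1.3.9.post1 and matplotlib 3.10.9 were used.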

Additional observations from a re-analysis of the deposited data

How the results depend on the processing

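Across 14 alternative settings, 57 values of 11 results were computed, and 41 stayed within the interval of a share or within 1.5 times a count. The shares of sites near P450 genes found at both times were among them, from 42.1 to 63.2% at ZT0 and from 61.5 to 76.5% at ZT12. So were the total counts of sites inside clusters and at edges with members chained at 200 or 1000 kb. Chaining at 200 kb splits the Cyp2a/b/f/g/s/t cluster between Cyp2a4 and Cyp2b23, and the Cyp4f cluster between Cyp4f15 and Cyp4f14. The numbers of clusters with sites and the densities were not recomputed for it. Some of the 41 could not move, since reducing the ZT0 list leaves the ZT12 counts as they were. The share of motif matches in a ZT12 site is also among the 41, although it belongs to the other time. With genes extended by 10 kb, sites near members fell to 19 at ZT0 and 13 at ZT12 and members with a site to 14 and 12, because the windows are smaller. With only sites wider than the median of their list, which leaves fewer sites, 19 and 8 were near members, 6 and 2 inside clusters, 6 and 1 at edges, and 20 and 9 members had a site. With edges of 20 kb there were 5 edge sites at ZT0 and 2 at ZT12, and with edges of 100 kb 10 at ZT12. At a score passed by 0.2% of regions, 3 of 8 motif matches inside clusters (37.5%) lay in a ZT0 site, against 43.3% in the genome, and 4 of 8 in a ZT12 site, against 30.9%. With the ZT0 list reduced to its 6799 widest sites, 29 were near members, 10 inside clusters and 8 at edges, and 26 members had a site, so inside clusters and by member ZT0 fell below ZT12, with 12 and 30. Depth is unknown, so what it limits could not be measured. No paired analysis was possible because each list combines both replicates, and for the same reason leaving out replicates was not run.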
